A study of Mus musculus with 7 samples.

Results

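The 8 genes described here, Malat1, Neat1, Gas5, Snhg1, Snhg12, H19, Meg3 and Kcnq1ot1, encode long non-coding RNAs, and they were taken by symbol from the 23347 genes of a liver count table. All 8 were in the table and all 8 passed the filter on low counts that 15179 genes passed. RefSeq lists each of them as a long non-coding RNA. Whole liver RNA was sequenced without separating nucleus from cytoplasm, so where the RNAs lay in the cell was not measured. Malat1, Neat1, Meg3 and Kcnq1ot1 are known to be kept in the nucleus, whereas the spliced Gas5, Snhg1, Snhg12 and H19 RNAs are known to reach the cytoplasm as well.

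Malat1 gathers in nuclear speckles, bodies rich in splicing factors, and Neat1 is the scaffold of paraspeckles, bodies that hold RNA-binding proteins. Gas5, Snhg1 and Snhg12 carry small nucleolar RNAs (snoRNAs) in their introns, and their spliced RNA is made from a start that often holds a run of pyrimidines and is degraded once ribosomes have passed over it, by nonsense-mediated decay. H19, Meg3 and Kcnq1ot1 are imprinted, that is, made from the chromosome of 1 parent. H19 and Meg3 are abundant in fetal liver and are largely silenced after birth.

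The libraries came from 7 male mice on a C57BL/6 background that were 6 to 8 weeks old when they were put on CDAHFD, a choline-deficient, amino acid-defined, high-fat diet that brings on steatohepatitis, and that ate it for 15 weeks. The 4 control mice carry the label WT, but by the study's methods they were B4galt1 flox/flox littermates, and the 3 mice of the other group, labelled B4-HKO, carried Alb-Cre on top of the same floxed alleles, so that B4galt1, a Golgi galactosyltransferase, is lost from hepatocytes only. Cre without floxed alleles was not analysed here, so the effect of Cre cannot be told apart from that of the deletion. The RNA is from bulk tissue, in which fewer cells of a type and less RNA per cell cannot be told apart.

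Total counts ran from 37838654 to 39668509 in the WT libraries and from 30608271 to 34586588 in the libraries labelled B4-HKO. B4galt1 stood at 48.7, 53.0, 49.2 and 51.6 CPM (counts scaled to a common library size by TMM) in WT libraries 1 to 4 and at 28.4, 23.9 and 53.7 CPM in libraries 1 to 3 labelled B4-HKO. Library 3 of the latter group thus lay above every WT library and goes against its label, and values of the 8 RNAs are also given without it where its absence ends a call or moves them by over 1.5 times. The hepatocyte markers were abundant in every library (74700 to 112900 summed CPM in WT and 92340 to 143400 in B4-HKO for the 6 genes listed). The 6 markers of Kupffer cells and macrophages summed to 848 to 2050 CPM in WT and to 398 to 451 CPM in B4-HKO. Of this, Lyz2 alone made up 573 to 1555 and 192 to 266 CPM. Lyz2, Adgre1 and Cd68 were called lower (50% of the 6, against 7.83% of all tested genes). Clec4f, Csf1r and Timd4 overlapped between groups and were not called (edgeR adjusted p = 0.251, 0.0834 and 0.600), and no marker was at 0.

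Mitochondrially encoded mRNAs, the 13 transcripts of the mitochondrial genome, took a larger share of the counts in every library labelled B4-HKO. They took 5.47%, 5.83%, 3.88% and 8.0% of the counts in WT libraries 1 to 4 and 22.6%, 22.1% and 14.4% in libraries 1 to 3 labelled B4-HKO. The means were 5.79% ± 1.70 (SD, n = 4) and 19.7% ± 4.58 (SD, n = 3), and the two-sided exact permutation test gave p = 0.0286, the smallest p that 35 splits of 7 libraries allow. The share came almost wholly from COX1, CYTB, ND1, ND2, ND4 and ND5, each with a WT mean of at least 4841 CPM. The rest of the 13 had WT means of at most 60.6 CPM, and why so few of their reads were counted was not tested. TMM scaling uses the bulk of the genes, and leaving the 13 mRNAs out of the table before scaling moved the median log2 fold change of all genes by 0.00396.

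The starts of the 3 snoRNA host genes are shown because their RNAs were higher together in the livers labelled B4-HKO. Each line gives 50 bases before and 50 bases from the RefSeq start site (GRCm38.p6, plus strand for all 4 windows). Capitals mark the longest run of C and T that touches the 15 bases on either side of the start. Gas5 has a pair of RefSeq starts, and its second window is at chr1:161035116-161035215, its first at chr1:161034551-161034650. The Snhg1 window is chr19:8723437-8723536 and the Snhg12 window chr4:132308628-132308727.
Gas5 first start: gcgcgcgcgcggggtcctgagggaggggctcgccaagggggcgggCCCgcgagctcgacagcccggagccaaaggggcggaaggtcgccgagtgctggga
Gas5 second start: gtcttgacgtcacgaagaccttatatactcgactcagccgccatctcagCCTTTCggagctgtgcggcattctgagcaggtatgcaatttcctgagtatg
Snhg1: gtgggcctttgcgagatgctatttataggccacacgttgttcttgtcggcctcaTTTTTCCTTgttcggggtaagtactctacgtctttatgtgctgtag
Snhg12: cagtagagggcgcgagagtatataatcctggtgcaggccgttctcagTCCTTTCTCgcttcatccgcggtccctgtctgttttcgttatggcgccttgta

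The run was 9 bases long in Snhg1 and in Snhg12 and 6 bases at the second start of Gas5, against 3 at its first. A run of at least 9 bases was held by 12.4% of the 32851 promoters in the RefSeq table, and a run of at least 6 bases by 37.5%. For the 15 other snoRNA host genes with a promoter in that table, 8 had a run of at least 7 bases (53.3%), against 25.5% of all promoters. Of the 6 RNAs described here that have a promoter there, 2 did (33.3%). A gene was counted when any of its starts had the run, whereas the 25.5% counts each promoter by itself, so the shares are not strictly alike. These are matches of letters in a window, with no measurement of the start that liver uses. For contrast, Kcnq1ot1 (chr7:143296498-143296597, minus strand) had a longest run of 4 bases, here with the same marking.
Kcnq1ot1: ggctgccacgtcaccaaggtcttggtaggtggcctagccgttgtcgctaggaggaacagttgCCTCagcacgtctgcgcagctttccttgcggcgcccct
The table held no entry for Neat1 or H19.

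Of the 8 RNAs, 4 were called higher in the livers labelled B4-HKO and 0 lower, by edgeR's quasi-likelihood test at an adjusted p below 0.05 and a log2 fold change beyond 0.58 in either direction. Over all tested genes, 8.0% were called higher and 7.83% lower, that is 1215 and 1189 genes, and limma on log2(FPKM + 1) split the calls differently, with 561 higher and 1733 lower. The median log2 fold change was 0.76 over the 8 RNAs and 0.02 over all tested genes. In the same 4 RNAs, Gas5, Snhg1, Snhg12 and Kcnq1ot1, every B4-HKO library lay above every WT library, as in 13.6% of tested genes. At an unadjusted p under 0.05 the count lower was also 0, against 2437 of 15179 tested genes. DESeq2 and limma each called 0 of the 8 lower. The count of 4 fell to 0 without WT library 2, to 2 without WT library 3 and to 2 without B4-HKO library 1. It was 2 (Snhg12 and Kcnq1ot1) without B4-HKO library 3, while all 4 estimates stayed positive in these fits. Calls over all genes fell as well, from 2404 to 885, 1405, 1818 and 2157 in the same order, so the losses were not particular to these RNAs.

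**Figure D1:**
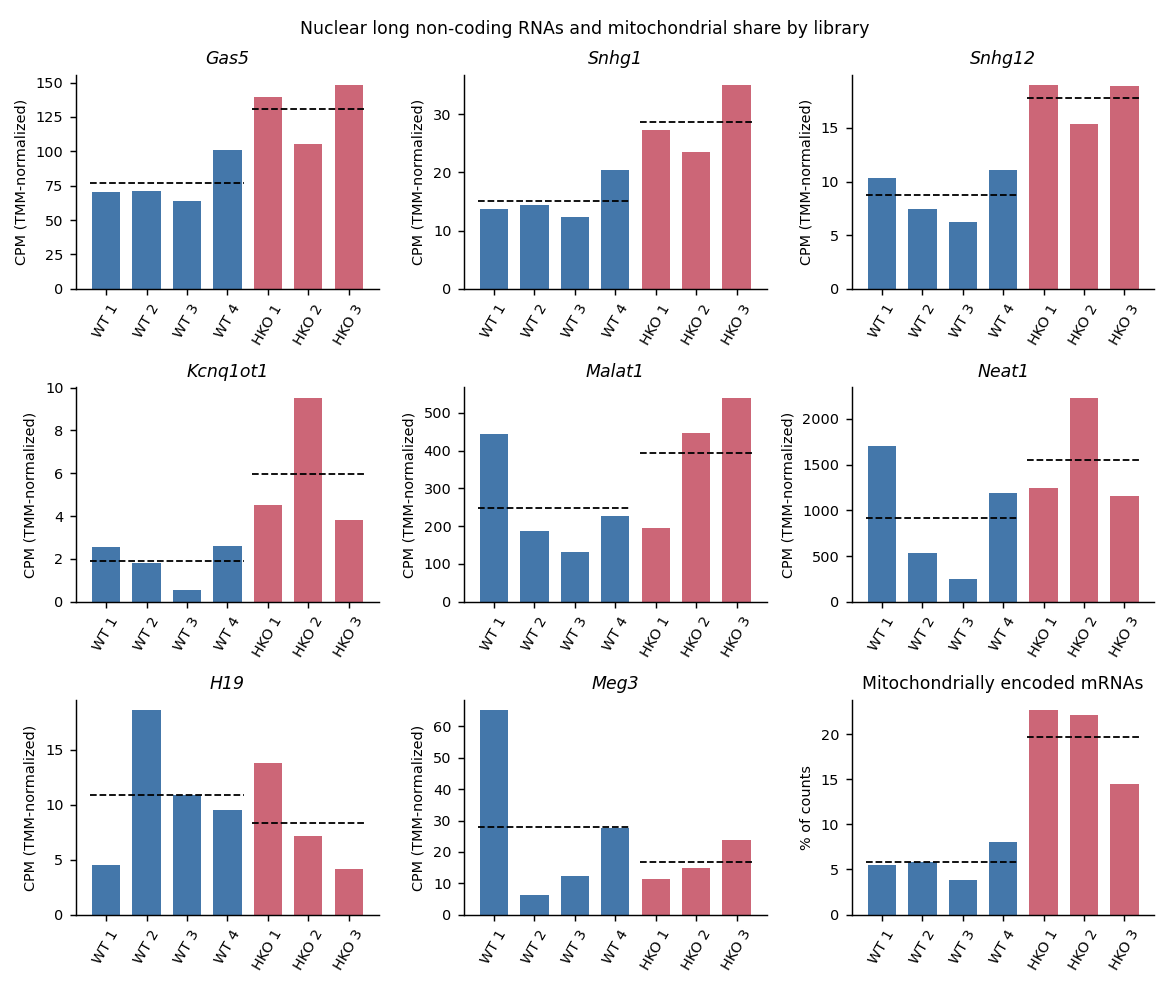
Each bar is 1 library: TMM-normalized CPM of each RNA and, in the last panel, the percentage of counts from the 13 mitochondrially encoded mRNAs, with WT in blue, libraries labelled B4-HKO in red and dashed lines at the group means. In Gas5, Snhg1, Snhg12 and Kcnq1ot1 the lowest red bar is above the highest blue bar, while in Malat1, Neat1, H19 and Meg3 the groups overlap.

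Among the snoRNA hosts, Gas5 is named for its rise in growth-arrested cells and carries box C/D snoRNAs. It stood at 70.2, 71.0, 64.2 and 101 CPM in WT libraries 1 to 4 and at 139, 105 and 148 CPM in B4-HKO libraries 1 to 3. WT library 4 came close to B4-HKO library 2, and the other libraries were well apart. Gas5 rose 1.71-fold, from 76.6 ± 16.6 (SD, n = 4) to 131 ± 22.7 CPM (SD, n = 3), a log2 fold change of 0.77 (SE 0.21, edgeR adjusted p = 0.0323). The call was the least firm of the hosts, with an adjusted p between 0.0589 and 0.10 on leaving out WT library 1, 2 or 3 or B4-HKO library 1 or 3.

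Snhg1, whose introns hold box C/D snoRNAs, stood at 13.6, 14.4, 12.3 and 20.3 CPM in WT libraries 1 to 4. In B4-HKO libraries 1 to 3 it stood at 27.3, 23.4 and 35 CPM. As for Gas5, WT library 4 was the highest control and B4-HKO library 2 the lowest of its group. Snhg1 rose 1.89-fold, with a log2 fold change of 0.92 (SE 0.22, edgeR adjusted p = 0.0203). Its adjusted p was 0.0661 without WT library 2 and 0.0671 without B4-HKO library 3.

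Snhg12, which carries mainly box H/ACA snoRNAs, stood at 10.3, 7.45, 6.23 and 11 CPM in WT libraries 1 to 4. The B4-HKO libraries gave 19, 15.4 and 18.9 CPM, all above the highest control. The RNA rose 2.03-fold, a log2 fold change of 1.02 (SE 0.24, edgeR adjusted p = 0.0168), and lost the call without WT library 2 alone among the libraries left out (adjusted p = 0.0640). The snoRNAs inside these genes were not tested here, so the values are those of the host RNAs.

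The 3 hosts moved nearly in parallel over the 7 libraries. After centring log2 CPM, Gas5 and Snhg1 differed by a root mean square of 0.10, the smallest of the 28 pairs among the 8 RNAs, and Gas5 and Snhg12 differed by 0.20, as did Snhg1 and Snhg12. The 7 libraries include the difference between groups, which all 3 RNAs share. Among the WT libraries, Gas5 and Snhg1 had the same order as the mitochondrial share, lowest in library 3 and highest in library 4, and Snhg12 was lowest and highest in the same libraries. Among the B4-HKO libraries, library 3, whose B4galt1 level goes against its label, had the lowest share at 14.4% and the highest Gas5 and Snhg1 values. The part of the mitochondrial share and of the macrophage markers in these differences was not tested.

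Of the genes beside the hosts, those named here did not pass the call. Zbtb37, which overlaps the Gas5 locus in RefSeq, showed a log2 fold change of 0.33 (edgeR adjusted p = 0.313). On either side of Snhg1, Wdr74 gave 0.45 on the log2 scale (adjusted p = 0.122) and the amino acid transporter subunit Slc3a2 one of -0.50 (adjusted p = 0.0674). Beside Snhg12, the value for Trnau1ap was -0.29 (adjusted p = 0.311). Whether counting used the strand is not given in the sources used here, so reads of overlapping genes on opposite strands cannot be told apart.

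Of 18 other snoRNA host RNAs, 9 were called higher and 0 lower, 50% against 8.0% of all tested genes, and all 18 log2 fold changes were positive, with a median of 0.91. At an unadjusted p under 0.05, 14 were higher and 0 lower, against 2551 higher and 2437 lower of all 15179 tested genes. Dancr, which restrains differentiation in several cell types, was at 2.14 to 4.21 CPM in WT and at 8.45 to 12.4 CPM in B4-HKO libraries, a log2 fold change of 1.98 (SE 0.31, edgeR adjusted p = 0.00396). Snhg20 rose by 1.92, Snhg10 by 1.77 and Snhg3 by 1.75 on the log2 scale. The most abundant hosts beside these were Snhg8, which rose by 0.76, and Zfas1, with a log2 fold change of 0.47 that did not pass (adjusted p = 0.154). Summed over the 18, the level was 106 to 137 CPM in WT and 226 to 257 CPM in B4-HKO. Leaving out WT library 3 left 4 calls, WT library 2 left 5 and B4-HKO library 3 left 7. Over all genes these fits left 1405, 885 and 2157 calls, against 2404 as reported.

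Among short genes and among long non-coding RNAs, fewer genes were called lower than over all tested genes, of which 8.0% were called higher and 7.83% lower, with a median of 0.02 on the log2 scale. Of the 372 tested genes whose length in the table was 400 to 700 nucleotides, the range that holds Gas5 (620), Snhg1 (476) and Snhg12 (606), 13.7% were called higher and 1.88% lower, and the median log2 fold change was 0.23. Of 1309 RefSeq long non-coding RNA genes other than the 8, 9.17% were called higher and 2.06% lower, with a median of 0.39. The part of transcript length in the host result was not tested.

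**Figure D2:**
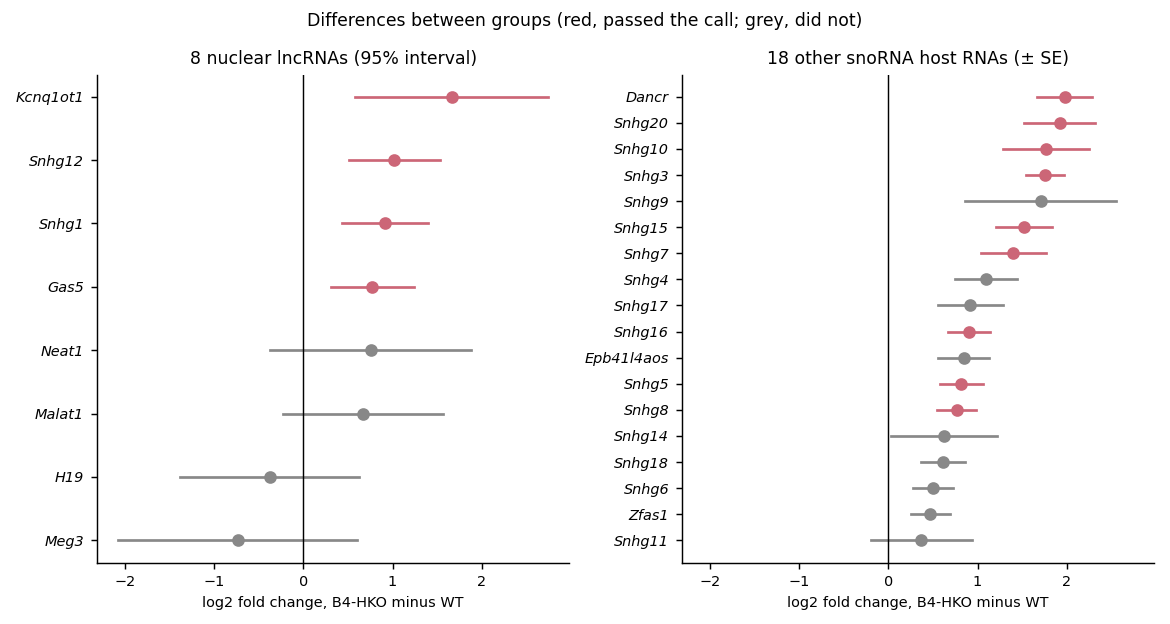
Points are log2 fold changes (B4-HKO minus WT) from edgeR, at left for the 8 RNAs with 95% intervals and at right for 18 other snoRNA hosts with 1 SE on either side, red where the call was passed. All 18 hosts lie right of 0, while Malat1, Neat1, H19 and Meg3 have intervals that cross 0.

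Kcnq1ot1, the long antisense RNA that silences neighbouring genes of the Kcnq1 cluster on the paternal chromosome, had the largest difference of the 8 and the lowest level. Its counts were 112, 72, 23 and 92 in WT libraries 1 to 4 and 139, 316 and 116 in B4-HKO libraries 1 to 3. As CPM these were 2.58, 1.81, 0.539 and 2.60 against 4.51, 9.53 and 3.82, so the groups did not overlap, but WT library 3 and B4-HKO library 2 stood far from the rest. Kcnq1ot1 rose 3.17-fold, a log2 fold change of 1.66 with a 95% interval from 0.58 to 2.75 (SE 0.50, edgeR adjusted p = 0.0424). Without B4-HKO library 2 the log2 fold change was 1.15 (adjusted p = 0.175) and without WT library 3 it was 1.35 (adjusted p = 0.0551). It also lost the call without WT library 2 or 4 or B4-HKO library 1.

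Kcnq1, the potassium channel gene that Kcnq1ot1 overlaps in RefSeq, stood at 3.61, 3.69, 4.83 and 0.904 CPM in WT and at 1.43, 9.74 and 1.41 CPM in B4-HKO libraries. B4-HKO library 2 was thus the highest for both RNAs, whereas WT library 3, the lowest for Kcnq1ot1, was the highest control for Kcnq1. The log2 fold change of Kcnq1 was 0.36 (SE 0.68, adjusted p = 0.739), and that of Cdkn1c, a cell cycle inhibitor of the same cluster, was -0.05 (adjusted p = 0.905). With its 83437 nucleotides in the table, Kcnq1ot1 reached 0.00697 to 0.0353 FPKM in WT and 0.0402 to 0.124 FPKM in B4-HKO, the lowest levels per length of the 8.

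Malat1 was not called. It stood at 445, 188, 131 and 228 CPM in WT libraries 1 to 4 and at 195, 448 and 540 CPM in B4-HKO libraries 1 to 3. B4-HKO library 1 lay among the lower controls and WT library 1 beside B4-HKO library 2, so the groups overlapped. The log2 fold change was 0.67 with a 95% interval from -0.23 to 1.57 (edgeR adjusted p = 0.279). It ranged from 0.36 without B4-HKO library 3 to 1.12 without WT library 1 (adjusted p = 0.612 and 0.0541).

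Neat1 had more counts than any of the 1317 tested RefSeq long non-coding RNAs, with Malat1 next. It stood at 1702, 528, 247 and 1192 CPM in WT libraries 1 to 4 and at 1245, 2234 and 1162 CPM in B4-HKO libraries 1 to 3. WT libraries 1 and 4 lay within the range of the B4-HKO group, and WT libraries 2 and 3 far below it. The log2 fold change was 0.75 with a 95% interval from -0.37 to 1.88 (edgeR adjusted p = 0.332). It was 0.39 without B4-HKO library 2, 0.44 without WT library 3 and 1.24 without WT library 1 (adjusted p = 0.691, 0.518 and 0.101).

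The controls differed more among themselves in these RNAs than in most genes. The highest WT library exceeded the lowest 6.90-fold for Neat1 and 3.40-fold for Malat1, against a median of 1.63 over all tested genes, and 96.3% and 88.6% of tested genes had a smaller ratio. For the hosts the ratio was 1.57 in Gas5, 1.66 in Snhg1 and 1.77 in Snhg12, near that median. WT library 1 was the highest control for Malat1, Neat1 and Meg3 alike, and WT library 3 the lowest for Malat1, Neat1, Kcnq1ot1, Gas5, Snhg1 and Snhg12. The latter library also had the highest sum of Kupffer cell and macrophage markers, 2050 CPM, and the lowest mitochondrial share, and their part in its low values was not tested.

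Malat1 and Neat1 are neighbours on chromosome 19 but did not keep a fixed ratio. The log2 ratio of their counts was -1.94, -1.49, -0.92 and -2.39 in WT libraries 1 to 4 and -2.68, -2.32 and -1.10 in B4-HKO libraries 1 to 3. The means of -1.68 ± 0.63 (SD, n = 4) and -2.03 ± 0.82 (SD, n = 3) differed by less than the spread within either group (p = 0.543, exact permutation test, two-sided). The difference of -0.35 turned on single libraries, and was -0.81 without B4-HKO library 3, more than the SD of the WT group, -0.58 without WT library 4, -0.21 without B4-HKO library 2, -0.09 without WT library 3 and -0.03 without B4-HKO library 1. After centring, the profiles of the pair differed by a root mean square of 0.63 on the log2 scale, and Neat1 ranked 2661 of 15178 genes in its likeness to Malat1. The genes most like Malat1 over the 7 libraries were Ctcflos, Vegfa and Sec31b (root mean square 0.19 to 0.22), and those most like Neat1 were Rsad1, Nlrp1b and Shfl (0.25 to 0.28). Frmd8, a protein-coding gene beside the locus, had a log2 fold change of -0.09 (edgeR adjusted p = 0.755).

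Malat1 and Neat1 together made up 78.0% to 93.9% of the counts of the 8 RNAs, so the sum over the 8 mostly follows them. The sum took 0.137% ± 0.0937 (SD, n = 4) of all counts in WT and 0.210% ± 0.0870 (SD, n = 3) in B4-HKO, a difference within the spread of the groups (p = 0.314, exact permutation test, two-sided). This difference of 0.0725 percentage points turned on single libraries. It was 0.0226 without B4-HKO library 2 and 0.115, more than either SD, without WT library 1. With mitochondrially encoded counts left out of the total the shares were 0.146% and 0.263% (exact permutation p = 0.200).

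Genes for the proteins of the bodies that Malat1 and Neat1 occupy were counted beside them. Of 23 tested genes for nuclear speckle proteins, splicing factors and their kinases, 11 were called higher and 0 lower, and the median log2 fold change was 0.73, and at an unadjusted p under 0.05 the counts were 16 and 0. Over all tested genes the shares called were 8.0% and 7.83%, and at that unadjusted p the counts were 2551 higher and 2437 lower of 15179. Clk2 rose by 1.83, Clk1 by 1.70 and Clk4 by 1.49 on the log2 scale, all kinases that phosphorylate SR splicing factors, and the splicing factor Srsf6 rose by 1.39. Dyrk1a, another kinase on the list, had a log2 fold change of 0.10 (edgeR adjusted p = 0.715). The most abundant others were Srrm2, a scaffold of the speckle, and Srsf5, with log2 fold changes of 0.29 and 0.41 that did not pass (edgeR adjusted p = 0.613 and 0.448). Clk1 was at 64.7 to 119 CPM in WT and at 226 to 386 CPM in B4-HKO libraries. Without WT library 2 the count of 11 was 7, and the count over all genes was 885, against 2404 as reported.

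Of 21 tested genes for paraspeckle proteins, 3 were called higher (14.3%) and 2 lower (9.52%), against 8.0% and 7.83% of all tested genes. The median log2 fold change was -0.15. At an unadjusted p under 0.05, 5 were higher and 6 lower, against 2551 and 2437 of 15179. All B4-HKO libraries lay above all WT libraries in 5 and below them in 7, against 2060 and 2282 of 15179. Sfpq, a core paraspeckle protein, rose by 0.86, and Hnrnph3 and Hnrnph1, which bind G-rich RNA, by 1.07 and 1.03 on the log2 scale, whereas Hnrnpr fell by 0.86 and Rbm3, a cold-induced RNA-binding protein, fell by 0.79. Nono, the partner of Sfpq, had a log2 fold change of -0.57 (edgeR adjusted p = 0.0619).

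Of 15 genes for factors of nonsense-mediated decay, the route that degrades spliced host RNAs, 5 were called higher and 0 lower, and the median log2 fold change was 0.48. The share called higher was 33.3%, against 8.0% over all tested genes, of which 7.83% were called lower. At an unadjusted p under 0.05 the counts were 8 and 1, against 2551 and 2437 of all 15179 tested genes. Upf3b rose by 1.0, the kinase Smg1 by 0.87 and Magoh of the exon junction complex by 0.86 on the log2 scale. The helicase Upf1 had a log2 fold change of 0.49 (edgeR adjusted p = 0.0785).

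H19, the maternally expressed RNA that holds Mir675 in its first exon, was not called. It stood at 4.48, 18.6, 10.9 and 9.52 CPM in WT libraries 1 to 4 and at 13.8, 7.18 and 4.11 CPM in B4-HKO libraries 1 to 3. Both groups covered nearly the same range. The log2 fold change was -0.38 with a 95% interval from -1.38 to 0.63 (edgeR adjusted p = 0.600). It was 0.02 without WT library 2, the library with the highest value, and -0.06 without B4-HKO library 3. In the other direction, it was -0.95 without B4-HKO library 1 and -0.64 without WT library 1. Igf2, the neighbouring growth factor gene that is expressed from the paternal chromosome, had a mean of 0.50 CPM in WT and 0.944 CPM in B4-HKO libraries (log2 fold change 0.90, adjusted p = 0.298).

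Meg3, the maternally expressed RNA of the Dlk1-Dio3 cluster, stood at 65.1, 6.17, 12.2 and 27.8 CPM in WT libraries 1 to 4. In B4-HKO libraries 1 to 3 it stood at 11.2, 14.8 and 23.9 CPM, within the range of the controls. Its 10.5-fold ratio between the highest and the lowest control was larger than in 98.0% of tested genes. The log2 fold change was -0.74 with a 95% interval from -2.08 to 0.60 (edgeR adjusted p = 0.427), and without WT library 1, which was the highest, it was 0.12.

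Further along the Meg3 cluster, Rian stood at 22.8, 4.14, 10.3 and 16.0 CPM in WT and at 2.92, 0.935 and 5.99 CPM in B4-HKO libraries. B4-HKO library 3 exceeded WT library 2, so the groups overlapped, and Rian fell by 2.02 on the log2 scale (SE 0.61, edgeR adjusted p = 0.0454). Mirg stood at -1.34 on that scale (adjusted p = 0.179), while Dlk1, Rtl1 and Dio3 were too low to be tested. Of 11 tested genes next to the 3 imprinted RNAs, 0 were called higher (1 at an unadjusted p under 0.05, Mrpl23) and 2 lower (18.2%), Rian and Cd81, against 8.0% higher and 7.83% lower over all tested genes, and the median log2 fold change was 0.14. Cd81, a tetraspanin gene that does not lie beside Meg3, fell by 1.35 (adjusted p = 0.00811).

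Per length, the 8 RNAs ranged from Gas5, the highest, down to Kcnq1ot1. In WT livers the FPKM, counts divided by gene length and library total, were 127 for Gas5, 46.4 for Neat1, 37.6 for Malat1, 32.7 for Snhg1, 15.0 for Snhg12, 4.86 for H19, 2.31 for Meg3 and 0.0233 for Kcnq1ot1. The ranges over libraries of Neat1 (12.8 to 93.6), Malat1 (20.2 to 72.7) and Snhg1 (27.8 to 39.9) overlapped, so their order is not settled, and the same held for Snhg12 (11.1 to 19.5) against Neat1 and for H19 against Meg3. Gas5, at 112 to 152 FPKM, lay above the others in every WT library and had the highest mean FPKM of the 1317 tested RefSeq long non-coding RNAs. In B4-HKO livers the means of Snhg1 and Malat1 were 56.6 and 54.2 FPKM, and their ranges of 51.9 to 64.7 and 25.2 to 69.5 FPKM overlapped each other and that of Neat1 (49.2 to 116), so no order among the 3 is settled there. The range of Malat1 in B4-HKO also held that of Snhg12 (27.4 to 28.4 FPKM), and the ranges of H19 and Meg3 overlapped.

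**Figure D3:**
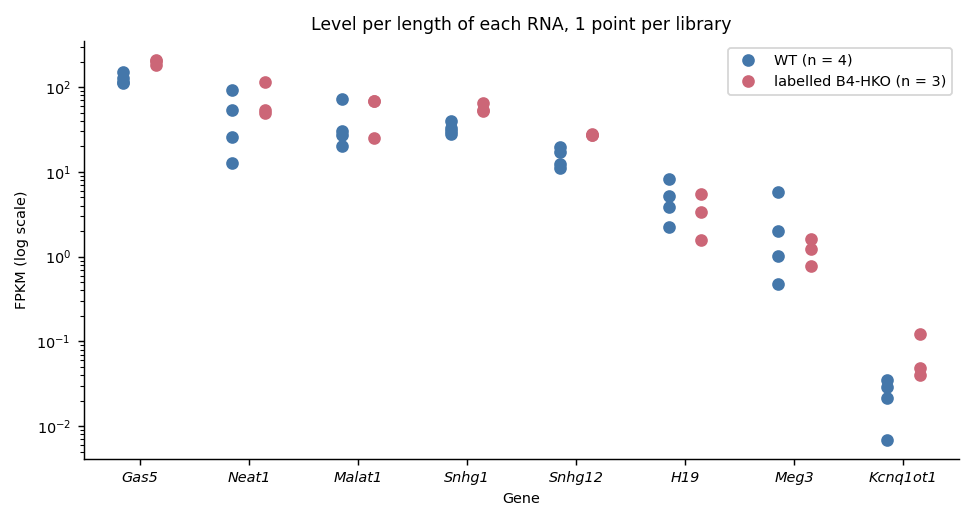
FPKM of each RNA on a log axis, 1 point per library, with WT in blue and libraries labelled B4-HKO in red. Gas5 is highest at 112 to 152 FPKM in WT, Kcnq1ot1 lowest, and Neat1, Malat1 and Snhg1 overlap.

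**Figure D4:**
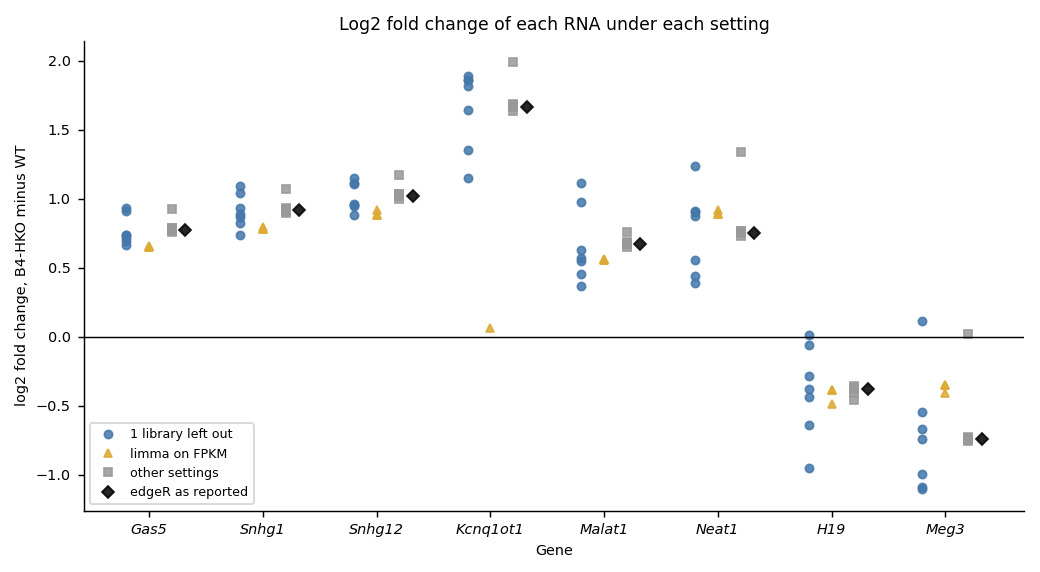
Log2 fold change (B4-HKO minus WT) of each RNA as reported (black), with 1 library left out (blue), from limma on FPKM (yellow) and under other settings (grey). Gas5, Snhg1, Snhg12, Kcnq1ot1, Malat1 and Neat1 stay above 0 throughout, while H19 reaches 0.02 and Meg3 0.12.

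Among 14 tested other long non-coding RNAs, 3 were called higher (21.4%) and 1 lower (7.14%), against 8.0% and 7.83% of all tested genes, and the median log2 fold change was 0.62. Mir17hg, the host of the miR-17 cluster, rose by 2.09, Hotairm1 of the Hoxa cluster by 1.57 and Dleu2 by 0.95 on the log2 scale. Norad, a cytoplasmic RNA that binds Pumilio proteins, fell by 1.14 (SE 0.28, edgeR adjusted p = 0.0223), from 57.5 to 89.4 CPM in WT to 23.2, 24.1 and 49.4 CPM in B4-HKO libraries. Firre and Tug1, the most abundant others and both largely nuclear, had log2 fold changes of 1.07 and 0.51 (adjusted p = 0.0844 and 0.0849).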

How the data were processed

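The authors extracted total RNA with TRIzol and made libraries with the VAHTS Universal V6 RNA-seq kit. The submitters' processing notes name fastp, HISAT2, HTSeq, DESeq2 and R 3.2.0, and the build GRCm39. Selection of poly(A) RNA and strandedness are not given in the sources used here. The authors deposited raw counts per gene, with no normalization, and FPKM, which, checked on 13374 genes that had 10 or more counts in each library, equalled the count divided by a fixed length and the library's total, with a largest deviation of 6.143e-06 percent.

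After filterByExpr of edgeR 4.0.16 (minimum count 10 and 15 in total) and TMM scaling, 15179 genes were tested by the edgeR quasi-likelihood F-test in R 4.3.3 with the groups alone in the model, and p-values were adjusted over all of them by the Benjamini-Hochberg method. A gene was called when the adjusted p was below 0.05 and the log2 fold change was beyond 0.58 in either direction. Single values were compared by exact permutation of the 7 libraries. By the study's text the libraries come from 4 and 3 mice. At these totals, 3 counts equal 0.0756 to 0.0980 CPM. No pair of libraries agreed within sampling noise.

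The 8 genes and all gene lists were chosen with earlier results of these data known. Besides the 8, the text names per list up to 4 called genes by size of change and the 2 next most abundant, 3 genes most like Malat1 and Neat1, and B4galt1. Beyond that rule, genes next to the 8 and further list members were named after their values were seen. Some genes that the rule or their position would name are not reported here. Gene biotype, neighbours and promoters came from RefSeq (GRCm38.p6), with 97.0% of genes matched by identifier. Scripts were tested on simulated data. Alternatives were RLE scaling, TMM without mitochondrially encoded mRNAs, DESeq2 1.42.0, other filters, limma 3.58.1 on FPKM with a pseudocount of 1 or 0.1, no fold change threshold, a replicate block and each library left out. Recounting the calls of other snoRNA hosts and nuclear speckle proteins under these was added after seeing the data.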

Additional observations from a re-analysis of the deposited data

Results flagged for a closer look

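Over 76 measures, each compared within the 4 WT libraries by Dixon's ratio, 3 had 1 library far from the rest, and chance alone marks about 1 in 20. None of the 8 RNAs, the mitochondrial share or the ratio of Malat1 to Neat1 was among them. Dancr, 1 of the other snoRNA hosts, stood at 4.21 CPM in WT library 4 against 2.14 to 2.16 CPM in the other 3, and every B4-HKO library was still higher. The Kupffer cell marker Adgre1 stood at 71.3 CPM in WT library 3 against 20.1 to 25.6 CPM, and the endothelial marker Clec4g at 90.9 CPM in the same library against 19.9 to 28.4 CPM. WT library 3 was also the lowest of the controls for Malat1, Neat1, Kcnq1ot1, Gas5, Snhg1 and Snhg12.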

How the results depend on the processing

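With each library left out in turn, the count of the 8 RNAs called higher ranged from 0 to 3, the count called lower stayed at 0 and the count of all genes called ranged from 885 to 2396, against 2404 as reported. Fewer libraries enter each of these fits, and the cause of the larger losses was not tested. The difference in mitochondrial share ranged from 12.4 to 16.6 percentage points (13.9 as reported), that in the log2 ratio of Malat1 to Neat1 from -0.81 (without B4-HKO library 3) to -0.03 and that in the share of the 8 RNAs from 0.0226 to 0.115 percentage points. These 3 were read as values, since 6 libraries cannot give an exact permutation p under 0.05. Taken as a share of FPKM, the mitochondrial difference was 18.4 percentage points.

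RLE scaling, TMM without mitochondrially encoded mRNAs, DESeq2, both count filters and dropping the fold change threshold each left 4 RNAs called higher. limma on FPKM left 3 in each of its forms. Kcnq1ot1 did not reach the FPKM filter of 2 of them and, without a filter, was not called, with a log2(FPKM + 1) difference of 0.06 that the pseudocount shrinks. All genes called numbered 1330 by limma without a filter, which also left 3 of the 18 other snoRNA hosts and 5 of the 23 speckle genes, and log2(FPKM + 0.1) moved the median log2 fold change of all genes by -0.13.

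Replicate numbers are shared by the groups, but the animals differ, and same-numbered libraries deviated from their group means with correlations of -0.42, -0.10 and 0.09, so the numbers were not taken as pairs. With the replicate block, 3 of the 8 RNAs, 5 of the 18 other snoRNA hosts and 1267 of all genes were called, the log2 fold change of Neat1 was 1.34 and that of Meg3 turned to 0.0209. With 1 library left out, that of H19 ranged from -0.95 to 0.0162 and that of Meg3 from -1.10 to 0.12, turning without WT library 2 and WT library 1. Depth limited Kcnq1ot1 most, at 23 counts in WT library 3.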

Other observations

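Of 23 listed genes whose RNAs lack a poly(A) tail, mostly replication-dependent histones, 6 could be tested by edgeR, with 0 called higher (0 at an unadjusted p under 0.05) and 1 lower (16.7%), against 8.0% and 7.83% of all tested genes. The linker histone H1f2 fell by 2.23 on the log2 scale (adjusted p = 0.00267), while H2bc4 and H4c8, the most abundant others, had log2 fold changes of 0.11 and 0.00. The list summed to 115 to 171 CPM in WT and to 65.9 to 156 CPM in B4-HKO libraries.

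Among markers of other cells of the liver, Kdr, a receptor of endothelial cells, fell by 1.33 (edgeR adjusted p = 0.0441), the 1 call among 6 endothelial genes (16.7%, against 7.83% called lower over all tested genes). Stab2 and Clec4g, the most abundant others, had log2 fold changes of 0.45 and -0.87 (adjusted p = 0.238 and 0.222), that of Cdh5 was 0.14 (adjusted p = 0.850), and the sum over the 6 overlapped between groups, at 72.0 to 291 CPM in WT and 104 to 121 CPM in B4-HKO libraries. None of 6 cholangiocyte markers was called (0 at an unadjusted p under 0.05 in either direction), and their sum ran from 254 to 658 CPM in WT and from 259 to 874 CPM in B4-HKO libraries, with B4-HKO library 2, the highest for Neat1 and Kcnq1ot1, also the highest here. Whether these cells bear on the values of Neat1 and Kcnq1ot1 was not tested.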
